A study of Ovis aries with 6 samples.

Results

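The genes read here for iron uptake, export and haem breakdown were TFRC, SLC40A1, HMOX1, SLC39A14, ACO1, IREB2, STEAP3 and NCOA4. They are 8 of the 30574 genes in the feature tables, they were picked by name for their known role, and the ferritin chains were left out of the list. The list was chosen with earlier results of these data known. All 8 were found. The feature tables give them by symbol, and the levels of one gene are not set against those of another.

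Cells take up iron that is bound to transferrin through the transferrin receptor, TFRC. The ferrireductase STEAP3 then reduces it in the endosome, and SLC39A14 (ZIP14) brings in iron that is not bound to transferrin, together with zinc and manganese. Haem oxygenase 1, HMOX1, opens the haem ring and sets its iron free, and NCOA4 carries ferritin to the lysosome, where the stored iron is released. Ferroportin, SLC40A1, exports iron from the cell. ACO1 and IREB2 are the iron regulatory proteins, which bind the mRNAs of TFRC, SLC40A1 and the ferritin chains. Tissue macrophages are known for breaking down haem and returning its iron, and the follicle of the ovary is lined by granulosa cells that have no vessels of their own and sits in a stroma rich in vessels.

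The data are single-cell RNA counts from 6 Hu ewes, a sheep breed known for large litters. High litter size (HLS) ewes had a litter size of at least 3 and low litter size (LLS) ewes a litter size under 2, with 3 ewes in each group. The ewes were killed within 12 h of oestrus, no treatment or allele set the groups apart in the labels, and 1 ovary of each ewe was digested whole and made into 1 library, so each ewe is 1 replicate and follicles of all stages were mixed. The question that the groups address is which ovarian cells differ between ewes of high and low litter size.

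The 6 libraries held 52290 barcodes and between 43329214 and 75549906 UMI each. After the limits on quality and the removal of 2007 called doublets, 36457 cells remained, 5189 to 7096 a library, with a median of 5201 to 9813 UMI per cell. Of 36314 different barcodes retained, 143 occurred in more than 1 library. The library of HLS replicate 1 stood apart in 1 measure: over 11 cell types its sums correlated with the mean of the others at a median r of 0.948, against 0.968 to 0.9798 for the other 5 libraries. Values without it are given below. Clusters were named from markers, and the 8 genes and other iron and haem genes were kept out of the genes that formed the clusters. The cluster called macrophage-like held 1016 cells, with 12 of 12 macrophage markers detected and C1QA, C1QB, C1QC and TYROBP among its 10 leading genes. The endothelial-like cells numbered 14284, the stromal-like ones 8343, the granulosa-like ones 2551 and the theca-like ones 1912.

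Levels are UMI of a gene per 10000 UMI of all genes in the summed cells of a type and ewe. Each type was then compared with the mean of the other 13 of 14 types by edgeR's quasi-likelihood test, with the ewe as a block and p-values adjusted over 13417 genes.

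**Figure D1:**
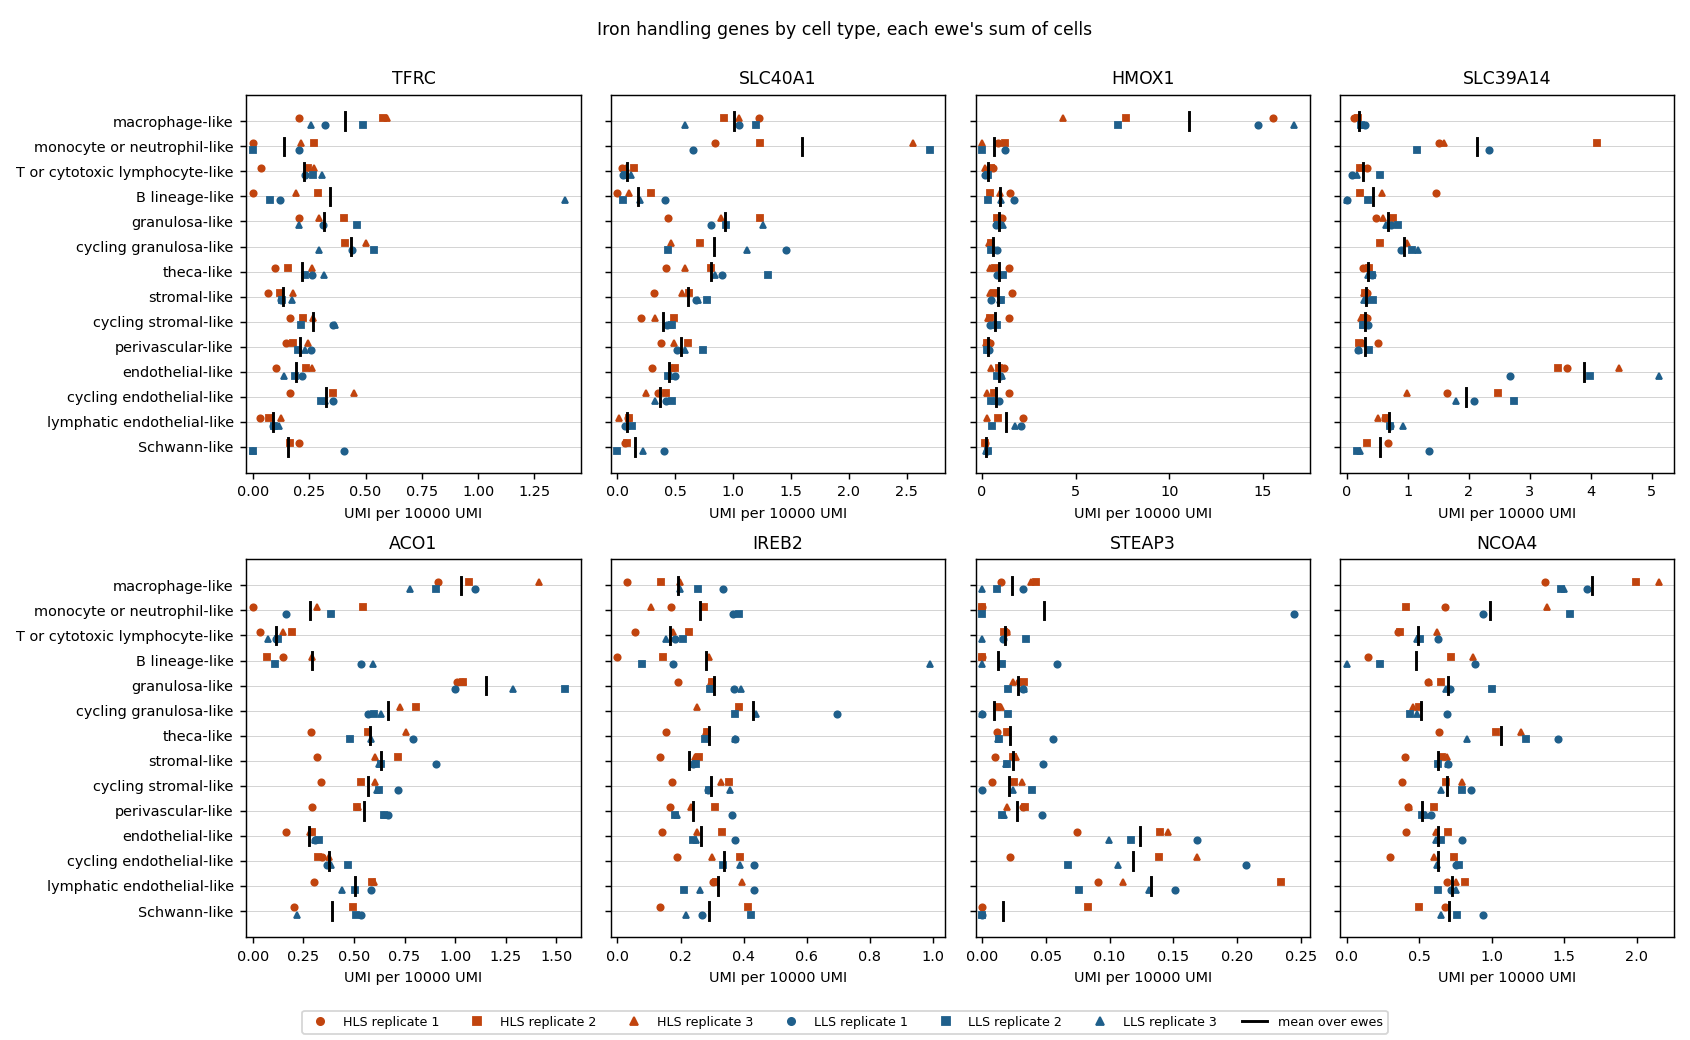
Level of each of the 8 genes (x axes, UMI per 10000 UMI) in 14 cell types (rows). Each point is 1 ewe (orange, HLS; blue, LLS) and the black bar is the mean over ewes. HMOX1 was highest in macrophage-like cells, from 4.30 to 16.7, and SLC39A14 in endothelial-like cells, from 2.68 to 5.12.

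The genes of haem breakdown and of the release of stored iron, HMOX1 and NCOA4, had their highest levels in macrophage-like cells. HMOX1 was at 15.5, 7.67 and 4.30 UMI per 10000 in HLS ewes, and at 14.8, 7.27 and 16.7 in LLS ewes, for a mean of 11.03 ± 5.23 (SD, n = 6 ewes). The next type, lymphatic endothelial-like cells, had a mean of 1.28 ± 0.836, and the lowest macrophage-like value lay above every value of any other type. The log2 difference from the mean of the other types was 4.27 ± 0.13 (SE; edgeR adjusted p = 1.8e-43). A UMI of HMOX1 was found in 75.3% of macrophage-like cells and in 5.28% of T or cytotoxic lymphocyte-like cells, at median depths of 6562 and 2379 UMI. With each cell thinned to 1000 UMI, the shares were 42.3% and 2.26%.

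HMOX1 was also read outside the macrophages. Its level in granulosa-like cells was 8.43% of that in macrophage-like cells, while the 12 macrophage markers reached a median of 0.0875% and at most 1.86% of their macrophage-like level there. In endothelial-like cells HMOX1 stood at 8.06% and the markers at a median of 0.0922%, and in stromal-like cells at 7.63% against 0.151%. HMOX1 thus stood above the median share of the macrophage markers in each of these types. Single markers reached 21.2% in endothelial-like and 2.07% in stromal-like cells. Schwann-like cells, with a mean of 0.225 ± 0.0813 (n = 5 ewes), and perivascular-like cells, with 0.305 ± 0.0831, were the lowest, and HMOX1 was lower there than in the mean of the other types by edgeR (log2 differences of -2.65 and -1.51; adjusted p = 2.1e-05 and 1.6e-08).

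NCOA4, the receptor that hands ferritin to the lysosome, was at 1.37, 2.00 and 2.15 in macrophage-like cells of the HLS ewes and at 1.66, 1.47 and 1.496 in those of the LLS ewes. The mean of 1.69 ± 0.315 was above the 1.06 ± 0.298 of theca-like cells, the next type, in 6 of 6 ewes. Both types were above the mean of the others, by 1.62 ± 0.10 on the log2 scale in macrophage-like cells (edgeR adjusted p = 5.6e-25) and by 0.82 ± 0.10 in theca-like cells (adjusted p = 5.2e-11). NCOA4 varied little over the remaining types, whose means ran from 0.476 to 0.989. It passed below the mean of the others in perivascular-like (-0.49), cycling granulosa-like (-0.71) and cycling endothelial-like cells (-0.30). The perivascular-like call was lost with cells thinned to 1000 UMI (-0.30, adjusted p = 0.20). The cycling endothelial-like call was lost without HLS replicate 1 (-0.22, adjusted p = 0.19) and also on leaving out HLS replicate 3 or either of LLS replicates 1 and 2.

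In all, 6 of the 8 genes passed in macrophage-like cells, where 55.9% of all genes tested did: HMOX1, NCOA4, SLC40A1, ACO1 and TFRC were higher (30.3% of all genes) and SLC39A14 was lower (25.6%). The median log2 difference of the 8 genes was 1.36, beside -0.04 over all genes tested. Without TMM scaling factors that median of all genes moved to -0.25 and the share of called genes that were higher went from 54.2% to 41.7%. The 6 calls on the 8 genes held, and IREB2 (-0.19, adjusted p = 0.40) and STEAP3 did not pass with the factors.

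**Figure D2:**
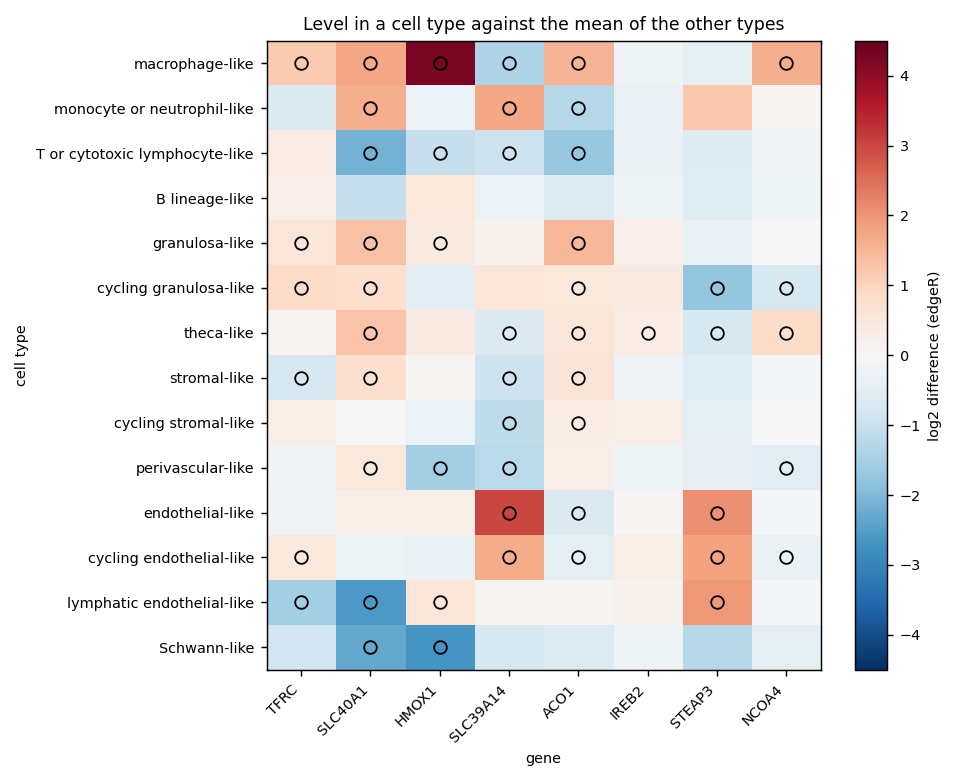
Log2 difference (colour) between the level of a gene (columns) in a cell type (rows) and the mean of the other 13 types, by edgeR. Circles mark an adjusted p under 0.05. The strongest red is HMOX1 in macrophage-like cells, at 4.27, followed by SLC39A14 in endothelial-like cells, at 2.99.

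Among the genes of uptake, SLC39A14 had a clear endothelial pattern. Its level was 3.61, 3.46 and 4.47 in endothelial-like cells of the HLS ewes and 2.68, 3.98 and 5.12 in those of the LLS ewes, a mean of 3.88 ± 0.847. Cycling endothelial-like cells followed with 1.96 ± 0.628 among the types of 6 ewes, and lymphatic endothelial-like cells stood at 0.691 ± 0.131. The log2 difference was 2.99 ± 0.13 in endothelial-like cells (edgeR adjusted p = 4.1e-33) and 1.67 ± 0.15 in cycling endothelial-like cells (adjusted p = 1.1e-15). For lymphatic endothelial-like cells it did not pass (0.13, adjusted p = 0.70). A UMI of SLC39A14 was found in 82.1% of endothelial-like cells and in 6.77% of lymphocyte-like cells, or in 29.3% and 2.73% with cells thinned to 1000 UMI. In endothelial-like cells 3 of the 8 genes passed, where 49.0% of all genes did.

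SLC39A14 also differed among the endothelial clusters, which are described here without a test. It was highest in the cluster led by PPP1R1B and CA4, at 4.99 ± 0.779, and in the one led by CXCL9 and SELP, at 4.51 ± 0.779. The cluster led by GJA5 and CXCL12, both genes of arterial vessels, was at 2.50 ± 0.507 and the one led by ESM1 and FAM167B at 2.25 ± 0.722. No ewe of the latter clusters (1.10 to 3.22) reached the lowest ewe of the CA4 cluster (4.12), and a single value, 3.17 in the SELP cluster, lay within their range. The ESM1 cluster came mostly from a pair of ewes: of its 4666 cells, 2056 were from HLS replicate 2 and 2459 from LLS replicate 1, and the other ewes gave 17 to 46 each, so that 4 of its 6 values rest on few cells. The small cluster led by ACKR1 had 1.06 ± 0.518 over 3 ewes.

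**Figure D3:**
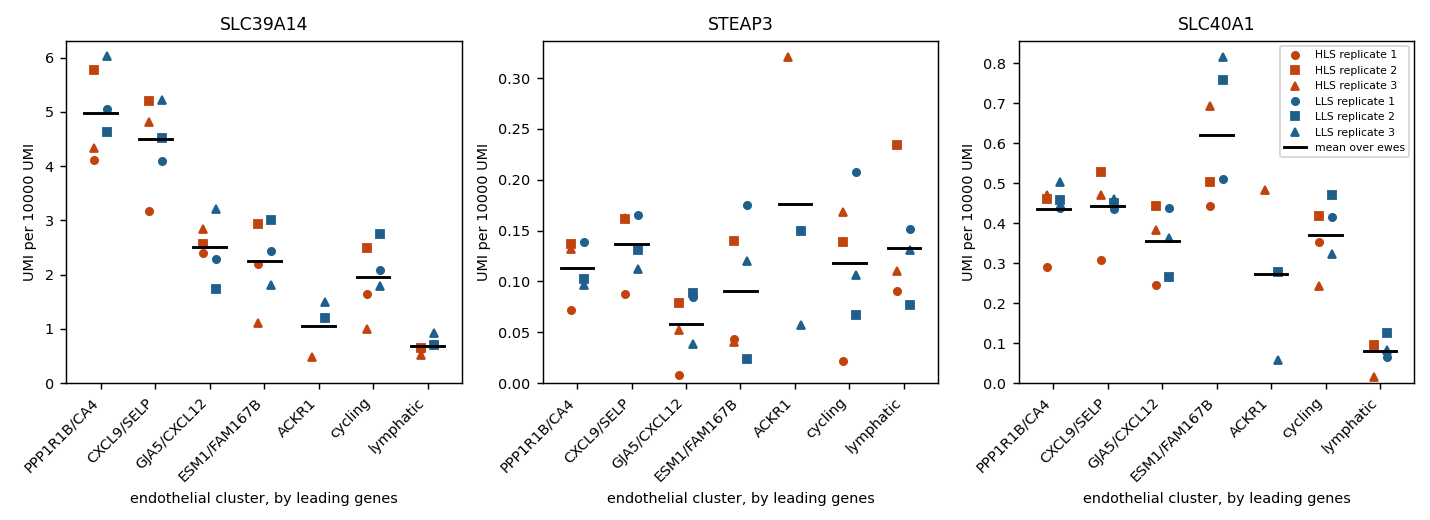
Levels of SLC39A14, STEAP3 and SLC40A1 (y axes, UMI per 10000 UMI) in 5 endothelial clusters named by their leading genes and in cycling and lymphatic endothelial-like cells. Points are ewes and bars are means. Mean SLC39A14 ran from 4.99 in the CA4 cluster to 0.691 in lymphatic cells, while SLC40A1 was lowest in lymphatic cells and STEAP3 was not.

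The monocyte or neutrophil-like cells, in which endothelial markers were also detected, had a high SLC39A14 level. Their mean was 2.14 ± 1.18 (n = 5 ewes; log2 difference 1.76, edgeR adjusted p = 3.6e-07), or 55.1% of the endothelial-like level. The 12 endothelial markers, all detected, stood at a median of 52.9% of their endothelial-like level in the same cells (40.8% to 88.2%). The part of endothelial RNA in this result was not tested, and with cells thinned to 1000 UMI the difference no longer passed (0.84, adjusted p = 0.18). In macrophage-like cells SLC39A14 was at 0.203 ± 0.0627, which was 5.23% of the endothelial-like level. The endothelial markers stood there at a median of 2.86% of their endothelial-like level (2.27% to 82.2%, the highest being PECAM1). SLC39A14 was lower there than in the other types by 1.40 ± 0.23 (log2 difference of -1.40, edgeR adjusted p = 1.4e-07). In T or cytotoxic lymphocyte-like cells it was lower as well (-0.93, adjusted p = 0.00077), but this turned to 0.033 when called doublets were kept.

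STEAP3, the endosomal ferrireductase, was scarce, with a mean of at most 0.132 UMI per 10000 in any type. It was highest in the 3 endothelial types: 0.124 ± 0.0340 in endothelial-like cells (1847 UMI in all), 0.132 ± 0.0569 in lymphatic endothelial-like cells (85 UMI) and 0.118 ± 0.0677 in cycling endothelial-like cells (300 UMI). All 3 passed as higher, with log2 differences of 2.05, 1.94 and 1.79 (edgeR adjusted p = 5.1e-18, 1.6e-10 and 1.4e-11). Within an endothelial type the ewes spread widely, from 0.0221 to 0.207 in the cycling cells, so the 3 means lay within the spread of the ewes. Macrophage-like cells had 0.0233 ± 0.0170, from 20 UMI, and did not differ from the mean of the others (log2 difference -0.40, adjusted p = 0.37). STEAP3 passed as lower in theca-like (-0.73) and cycling granulosa-like cells (-1.75). Both calls were lost without HLS replicate 2 (-0.38 and -1.34) and without LLS replicate 1 (-0.32 and -0.99), and the theca-like one without LLS replicate 3 (-0.68). The cycling granulosa-like mean was 0.00937, the lowest of the types compared and near 0. That call was also lost in DESeq2 (-1.73, adjusted p = 0.053).

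TFRC was low, with type means from 0.0877 to 0.437. Its highest means were in cycling granulosa-like cells, 0.437 ± 0.0954 (n = 5 ewes), and in macrophage-like cells, 0.408 ± 0.169. Macrophage-like values were 0.204, 0.577 and 0.597 for HLS and 0.320, 0.490 and 0.260 for LLS, so that the ewes of either group spanned most of the range. By edgeR TFRC was higher in macrophage-like (log2 difference 1.18 ± 0.16, adjusted p = 7.3e-10), cycling granulosa-like (0.86 ± 0.21, adjusted p = 0.00056), granulosa-like (0.56 ± 0.15, adjusted p = 0.0011) and cycling endothelial-like cells (0.48 ± 0.16, adjusted p = 0.010). The lowest means were 0.0877 ± 0.0344 in lymphatic endothelial-like cells and 0.134 ± 0.0411 in stromal-like cells, and both passed as lower (-1.54 and -0.75; adjusted p = 1.0e-07 and 4.7e-05). Without LLS replicate 2 the granulosa-like call was lost (0.33, adjusted p = 0.11). With cells thinned to 1000 UMI the calls in stromal-like, cycling granulosa-like and cycling endothelial-like cells were lost, with differences of -0.58, 0.51 and 0.52.

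Ferroportin, SLC40A1, separated types that belong to the same broad lineage. It was high in monocyte or neutrophil-like cells (1.59 ± 0.963, n = 5 ewes), macrophage-like cells (1.003 ± 0.235) and granulosa-like cells (0.930 ± 0.302), and at or below 0.174 in B lineage-like, Schwann-like, lymphocyte-like and lymphatic endothelial-like cells. In the endothelium, blood vessel cells (endothelial-like) had 0.445 ± 0.0744 and lymphatic endothelial-like cells 0.0791 ± 0.0364, and no ewe of the latter (0.0158 to 0.124) reached the lowest of the former (0.2999). Lymphatic endothelial-like cells were lower than the mean of the others by edgeR (log2 difference -2.59 ± 0.27, adjusted p = 1.3e-13), as were lymphocyte-like cells (-2.11 ± 0.28, adjusted p = 1.0e-09) and Schwann-like cells (-2.29 ± 0.54, adjusted p = 0.00072). The gene was higher in macrophage-like (1.75 ± 0.15), monocyte or neutrophil-like (1.64 ± 0.29), granulosa-like (1.31 ± 0.14), theca-like (1.27 ± 0.14), cycling granulosa-like (0.76 ± 0.21), stromal-like (0.72 ± 0.14) and perivascular-like cells (0.49 ± 0.16). With cells thinned to 1000 UMI, 3 of these calls were lost: lymphatic endothelial-like (-2.36), lymphocyte-like (-1.16) and cycling granulosa-like (0.12). In lymphatic endothelial-like cells 4 of the 8 genes passed, where 41.3% of all genes did.

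Of the iron regulatory proteins, ACO1 varied between types and IREB2 hardly did. ACO1 was highest in granulosa-like cells, at 1.01, 1.04 and 1.04 for HLS and 1.001, 1.54 and 1.28 for LLS (1.15 ± 0.218), and in macrophage-like cells (1.03 ± 0.222). The log2 differences were 1.49 ± 0.10 and 1.54 ± 0.11 (edgeR adjusted p = 4.3e-21 and 1.1e-20). Among the named granulosa states described further on, every ewe's ACO1 value in mGC-like cells was above this macrophage-like mean. Every value in CC-like and eGC-like cells was below it, so the high granulosa-like mean rests on the mGC-like state. Theca-like and stromal-like cells were higher by 0.56 and 0.57. Lymphocyte-like cells, with 0.117 ± 0.0545, were the lowest (-1.71 ± 0.19, adjusted p = 4.3e-12), and endothelial-like cells were lower by 0.66 (log2 difference of -0.66, adjusted p = 2.2e-06), which no longer passed with cells thinned (-0.35, adjusted p = 0.10). The stromal-like call was lost with a mitochondrial limit of 20% (0.26, adjusted p = 0.062). Smaller differences in cycling types (0.48, 0.35 and -0.45 in granulosa-like, stromal-like and endothelial-like ones) and a difference in monocyte or neutrophil-like cells (-1.28) also passed, and each of these 4 calls was lost under at least 2 alternative settings. The cycling stromal-like call was lost without HLS replicate 1 (0.14, adjusted p = 0.48) and in 4 of the 5 other fits that left out 1 ewe, the cycling granulosa-like call without HLS replicate 2 (0.29) or HLS replicate 3 (0.43), and the monocyte or neutrophil-like call without LLS replicate 1 (-0.91).

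IREB2 had type means between 0.167 and 0.429. It passed in theca-like cells only (log2 difference 0.33 ± 0.11, edgeR adjusted p = 0.0099, mean level 0.290 ± 0.0807), and this call was lost without TMM factors (0.16, adjusted p = 0.32) and with cells thinned to 1000 UMI (0.016). In granulosa-like cells 4 of the 8 genes passed, where 47.7% of all genes did, and all 4 were higher (31.8% of all genes were higher and 15.9% lower): ACO1, SLC40A1, TFRC and HMOX1. HMOX1 was at the edge there (0.41 ± 0.18, adjusted p = 0.049), and that call was lost without HLS replicate 3 (0.21), LLS replicate 2 (0.39) or LLS replicate 3 (0.42). It was also lost with a minimum of 25 cells per sum (0.096, adjusted p = 0.72), in DESeq2 (0.31, adjusted p = 0.19), at 0.5 times the clustering resolution (0.41, adjusted p = 0.054) and with thinned cells (0.49, adjusted p = 0.056). In theca-like cells 6 of 8 passed, where 54.5% of all genes did, with SLC40A1, NCOA4, ACO1 and IREB2 higher (35.1% of all genes) and, lower (19.4%), SLC39A14 (-0.64, or -0.50 with an adjusted p of 0.093 when thinned) and STEAP3. No gene of the 8 passed in B lineage-like cells, where 22.1% of all genes did, and in lymphocyte-like cells 4 passed, all lower, where 48.3% of all genes did (26.4% higher and 21.9% lower). In the other types with calls, the shares of all genes that passed were 19.5% in monocyte or neutrophil-like cells (3 of the 8 genes), 18.3% in Schwann-like (2), 46.6% in stromal-like (4), 39.2% in perivascular-like (4), 47.7% in cycling endothelial-like (5), 45.8% in cycling granulosa-like (5) and 48.9% in cycling stromal-like cells (2). HMOX1 in lymphatic endothelial-like cells (0.54 ± 0.19, adjusted p = 0.016) was another call at the edge, lost without LLS replicate 1 (0.34) or LLS replicate 3 (0.42) and with a minimum of 25 cells per sum (0.20, adjusted p = 0.44).

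Without TMM factors the median difference of all genes moved by -0.52 to 0.51 over the types, so differences are read relative to it. The share of called genes that were higher then moved from 64.4% to 51.1% in theca-like, from 61.0% to 71.4% in lymphatic endothelial-like, from 60.9% to 72.1% in cycling endothelial-like, from 54.7% to 33.8% in lymphocyte-like, from 53.6% to 83.0% in monocyte or neutrophil-like, from 48.5% to 17.6% in B lineage-like and from 53.6% to 90.8% in Schwann-like cells.

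Neighbours in the order of mean levels were compared within ewes by a two-sided exact sign-flip test. The smallest p it can give is 0.03125 with 6 ewes, 0.0625 with 5 and 0.125 with 4, and with 104 pairs of neighbours, 13 for each gene, such floors leave an adjusted p little room to pass. The test therefore does not show that any neighbours are alike. In 7 pairs the exact p was 0.03125 (adjusted p = 0.46), among them macrophage-like above lymphatic endothelial-like cells for HMOX1 and macrophage-like above theca-like cells for NCOA4, each in 6 of 6 ewes. The highest type was above the next in 3 of 6 ewes for ACO1 (granulosa-like over macrophage-like cells, exact p = 0.40625) and for STEAP3 (lymphatic endothelial-like over endothelial-like cells, exact p = 0.8125). For TFRC, SLC40A1, SLC39A14 and IREB2 the first pair had 5 ewes, so that p could not pass 0.05. The highest type was above the next in 4 of 5 ewes for SLC39A14, whose next type was the monocyte or neutrophil-like one, and in 3 of 5 for TFRC, SLC40A1 and IREB2.

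The genes whose pattern over the 14 types was most like that of a member are given with Pearson's r over type means, as a description. For HMOX1 they were UNC93B1 (0.93), DPP7 (0.92) and GDPD1 (0.92). For SLC39A14 they were C12H1orf115 (0.95), SHB (0.93) and NOS3 (0.92), the last being the nitric oxide synthase of endothelium. For STEAP3 they were PLXNA2, GPIHBP1 and SHE (0.97 each), and GPIHBP1 anchors lipoprotein lipase on capillaries. NCOA4 was most like MGST1 (0.90), the lysosomal glucosidase GAA (0.90) and ATP6V0B (0.87), a part of the proton pump of lysosomes. ACO1 was most like SSR1 (0.91), PDIA5 (0.90) and GPX4 (0.86), the peroxidase that reduces lipid hydroperoxides. SLC40A1 was most like HSDL2 (0.89), PFKFB4 (0.82) and WFS1 (0.82). TFRC was most like MRPL16 (0.88), DBI (0.86) and GRPEL1 (0.85), and IREB2 most like FUNDC1, CCAR2 and CAMKK2 (0.92 each). The points share their ewes and libraries, and a search over 13417 genes returns high values by its nature.

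Granulosa cells were split into states by marker lists drawn in part from the study. The states are named here eGC-like (738 cells), CC-like (673) and mGC-like (788). In the study's names, CC stands for cumulus cells around the oocyte and mGC for mural cells at the follicle wall. The paper's text gives TNNI3 as a marker of early granulosa cells, while here it stood in the CC list. The summed CC markers ranged from 78.9 to 111 in HLS and from 78.3 to 119 in LLS CC-like cells. In theca-like cells they ranged from 137 to 171 and from 98.6 to 153. The summed granulosa markers were lowest in mGC-like cells, from 5.62 to 8.91 in HLS and from 7.98 to 8.74 in LLS ewes. In eGC-like cells they were at 11.8 or more and in CC-like cells at 47.5 or more. Stromal markers summed to 10.3 to 27.1 in mGC-like cells and to at most 6.72 in the other states. The summed eGC markers ranged from 20.6 to 29.6 in HLS and from 31.5 to 35.1 in LLS eGC-like cells. In endothelial-like cells they ranged from 24.7 to 47.9 and from 23.5 to 58.1. The summed CC markers ranged from 30.3 to 38.8 and from 22.7 to 46.7 in eGC-like cells. The names are therefore labels. CC-like cells need not be cumulus cells, and eGC-like cells need not be early granulosa cells. The mGC-like cells, which count among the granulosa-like cells above, need not be mural granulosa cells. ACO1 and NCOA4 were higher in the mGC-like state and TFRC was lower in the eGC-like one. Each pair of states was tested by edgeR with the ewe as a block over 8005 genes, of which STEAP3 was not one because of its low counts (state means of 0.0208 to 0.0444).

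ACO1 was at 1.11, 2.23 and 1.75 in mGC-like cells of the HLS ewes and at 1.48, 1.86 and 2.06 in those of the LLS ewes. In CC-like cells the values were 0.344 to 0.886 and in eGC-like cells 0.625 to 0.978, so that no ewe's mGC-like value overlapped with any of them. The log2 difference was 1.20 ± 0.14 against CC-like cells (edgeR adjusted p = 6.7e-07) and 1.07 ± 0.14 against eGC-like cells (adjusted p = 3.5e-06). NCOA4 was at 0.620, 0.873 and 0.717 in mGC-like cells of the HLS ewes and at 0.849, 1.23 and 1.08 in those of the LLS ewes, with means of 0.405 ± 0.215 in CC-like and 0.485 ± 0.124 in eGC-like cells. Its differences were 1.004 ± 0.20 and 0.81 ± 0.20 (adjusted p = 0.00045 and 0.0026), and mGC-like cells had the highest NCOA4 value in 6 of 6 ewes.

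TFRC had means of 0.449 ± 0.161 in CC-like, 0.349 ± 0.129 in mGC-like and 0.199 ± 0.0263 in eGC-like cells. The eGC-like values stayed between 0.162 and 0.227, and the CC-like value was above the eGC-like one in 6 of 6 ewes (log2 difference 1.26 ± 0.23, edgeR adjusted p = 0.00041). The mGC-like state was also above eGC-like (0.77 ± 0.22, adjusted p = 0.0071). The CC-like cells were not made up alike in the ewes: a sub-cluster led by LHCGR, TNFAIP6 and CYP19 held 80.2% of those of LLS replicate 1 and at most 13.2% of those of any other ewe. Without LLS replicate 1 the TFRC difference of CC-like from eGC-like cells was 1.32 (adjusted p = 0.00032). The mGC-like state was below CC-like by a call at the edge (-0.49, adjusted p = 0.044), which was lost on leaving out HLS replicate 1 (-0.46) or 2 (-0.51), on leaving out LLS replicate 2 (-0.40) or 3 (-0.40), and without TMM factors (-0.36).

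Among the named states, HMOX1 and SLC40A1 stood highest in the eGC-like one. The 352 granulosa cells left unnamed, which entered no test, had a higher SLC40A1 mean and a similar HMOX1 mean, as given at the end. HMOX1 had means of 1.18 ± 0.293 in eGC-like, 0.740 ± 0.307 in CC-like and 0.661 ± 0.325 in mGC-like cells. It was lower in mGC-like than in eGC-like cells (-1.11 ± 0.27, edgeR adjusted p = 0.0026) and in CC-like than in eGC-like cells (-0.85 ± 0.28, adjusted p = 0.030). The latter call was lost on leaving out HLS replicate 2 (-0.79) or 3 (-0.74) and LLS replicate 2 (-0.81) or 3 (-0.86). SLC40A1 had means of 1.03 ± 0.377, 0.755 ± 0.274 and 0.726 ± 0.219, and was lower in mGC-like than in eGC-like cells (-0.60 ± 0.18, adjusted p = 0.0094), which was lost without HLS replicate 3 (-0.45, adjusted p = 0.085). SLC39A14 was lower in mGC-like than in CC-like cells (-0.57 ± 0.19, adjusted p = 0.017), lost without HLS replicate 2 (-0.43), HLS replicate 3 (-0.44) or LLS replicate 3 (-0.51). IREB2 passed between no 2 states (adjusted p of 0.56 or more).

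Of the 7 genes tested, 4 passed between mGC-like and CC-like cells, where 45.1% of all genes did, 5 between mGC-like and eGC-like cells, where 42.7% did, and 2 between CC-like and eGC-like cells, where 28.0% did. The share of the genes was near that of all genes in the last pair. The mGC-like cells were also the deepest, with a median of 12663 UMI against 4275 and 6518. With cells thinned to 1000 UMI, the share of cells with a UMI of ACO1 was 12.3% in mGC-like and 6.4% in both CC-like and eGC-like cells.

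**Figure D4:**
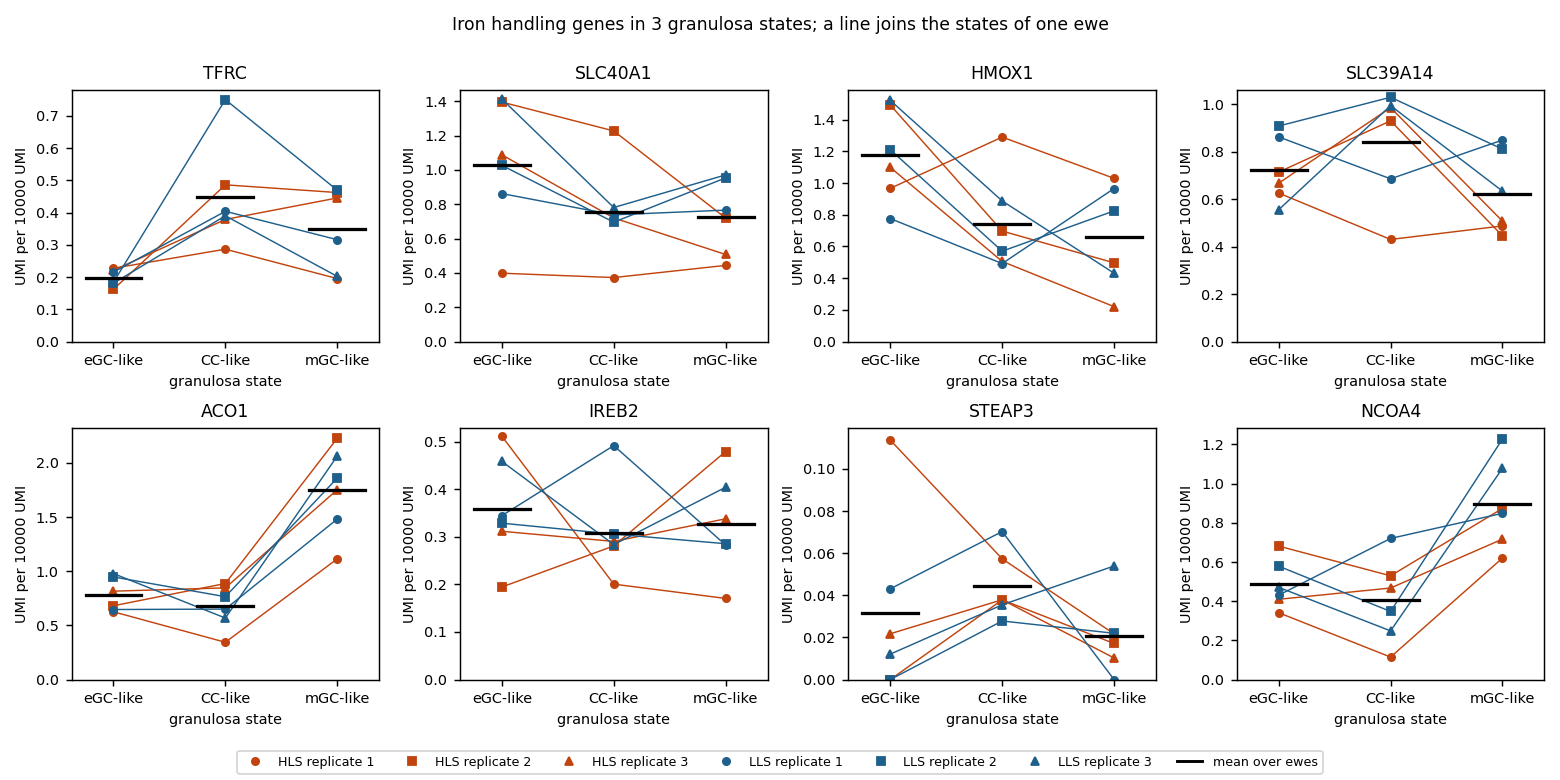
Levels of the 8 genes (y axes, UMI per 10000 UMI) in eGC-like, CC-like and mGC-like cells. A line joins the states of 1 ewe and black bars are means. ACO1 and NCOA4 were highest in mGC-like cells in every ewe, with means of 1.75 and 0.894, while IREB2 crossed between ewes.

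The groups were then compared within each cell type, with 3 HLS against 3 LLS ewes. No gene of the 8 passed by edgeR in any of 17 types and states. Not all 8 were tested in each, because genes with low counts were left out of a fit. Only 1 was tested in B lineage-like, 3 in monocyte or neutrophil-like, 5 in lymphocyte-like and 6 in lymphatic endothelial-like cells. In Schwann-like cells none of them was tested. In all these fits together 2 genes passed (35 by DESeq2), both higher in macrophage-like cells of HLS ewes; neither is among the 8, and they were picked after their values were seen: ALDH1A1, a retinal dehydrogenase (edgeR adjusted p = 0.020), and FABP4, a fatty acid binding protein (adjusted p = 0.012). That is 0.0230% of the 8709 genes tested in macrophage-like cells, and 0% of the genes passed in every other type and state. At an unadjusted p under 0.05, 460 genes (5.28%) stood in macrophage-like cells, SLC39A14 among them, and 333 (3.66%) in mGC-like cells, SLC40A1 and SLC39A14 among them. The shares were 4.75% in stromal-like, 3.86% in theca-like and 3.15% in perivascular-like cells.

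In macrophage-like cells the ewes of at least 1 group spread as widely as the groups differed for HMOX1, SLC40A1, NCOA4, ACO1 and TFRC. This was not so for IREB2 and SLC39A14, given below. HMOX1 had a mean of 9.16 ± 5.75 in HLS and 12.9 ± 4.97 in LLS ewes, with a log2 difference of -0.36 ± 0.48 (edgeR adjusted p = 0.94). The value rested on single ewes: it was -1.11 without HLS replicate 1, 0.0090 without HLS replicate 3, -0.63 without LLS replicate 2, -0.19 without HLS replicate 2 and -0.079 without LLS replicate 3. SLC40A1 (1.06 ± 0.153 in HLS and 0.943 ± 0.322 in LLS ewes), NCOA4 (1.84 ± 0.415 and 1.54 ± 0.101), ACO1 (1.13 ± 0.256 and 0.927 ± 0.161) and TFRC (0.459 ± 0.221 and 0.357 ± 0.119) had higher HLS means with groups that overlapped, with log2 differences of 0.26, 0.32, 0.37 and 0.43 and adjusted p-values of 0.92 or more. IREB2 was at 0.122 ± 0.0862 and 0.263 ± 0.0697 (-0.92 ± 0.42, adjusted p = 0.91).

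These differences also moved with single ewes. That of SLC40A1 was 0.041 without LLS replicate 3, 0.067 without HLS replicate 1, 0.41 without HLS replicate 2 and 0.49 without LLS replicate 2. For TFRC it was 0.20 without HLS replicate 3, 0.71 without HLS replicate 1 and 0.76 without LLS replicate 2. ACO1 stood at 0.20 without HLS replicate 3 and at 0.44 without HLS replicate 1. IREB2 stood at -1.49 and -0.60 in these fits, and NCOA4 at 0.22 and 0.44. For these 5 genes and HMOX1 the size of a group difference in macrophage-like cells thus depends on which ewes are counted.

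SLC39A14 was the 1 gene of the 7 tested whose groups did not overlap in macrophage-like cells. It was at 0.116, 0.192 and 0.155 in HLS ewes and at 0.293, 0.233 and 0.229 in LLS ewes (log2 difference -0.63 ± 0.28, unadjusted p = 0.046, edgeR adjusted p = 0.91). Groups did not overlap for 11.3% of all genes with at least 60 UMI in these cells, and 7.10% had all HLS ewes lower. Leaving out 1 ewe gave differences from -0.54 to -0.73, with -0.55 without HLS replicate 1. The summed endothelial markers ranged from 5.02 to 11.6 in HLS and from 7.51 to 9.84 in LLS macrophage-like cells. PECAM1, with a mean of 6.81, made up most of this sum, so the sum does not measure endothelial RNA in these cells. The 12 summed macrophage markers ranged from 89.4 to 112 in HLS and from 64.7 to 96.0 in LLS ewes, and 4 monocyte or neutrophil markers from 6.36 to 9.63 and from 3.40 to 6.06. Their part in the differences was not tested.

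In mGC-like cells the groups stood furthest apart for 3 genes, each with the lower mean in HLS. SLC40A1 was at 0.444, 0.719 and 0.507 in HLS ewes and at 0.765, 0.953 and 0.971 in LLS ewes, without overlap (log2 difference -0.64 ± 0.23, unadjusted p = 0.018, edgeR adjusted p = 0.99). SLC39A14 was at 0.487, 0.445 and 0.507 against 0.849, 0.810 and 0.634, also without overlap (-0.55 ± 0.24, unadjusted p = 0.042, adjusted p = 0.99). NCOA4 was at 0.620, 0.873 and 0.717 against 0.849, 1.23 and 1.08, and here the highest HLS ewe lay above the lowest LLS ewe (-0.46 ± 0.22, unadjusted p = 0.063, adjusted p = 0.99). In these cells 5.35% of all genes with at least 60 UMI had all HLS ewes lower. The other 4 genes tested had group means that differed by less than the SD of at least 1 group, such as ACO1 with 1.70 ± 0.558 and 1.801 ± 0.295.

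The mGC-like cells were not made up alike in the ewes. A sub-cluster led by MX1 and ISG15, which are genes of the interferon response, held 73.7% of those of LLS replicate 2 and at most 2.13% of those of any other ewe. Without LLS replicate 2 the log2 differences were -0.56 for SLC40A1, -0.48 for SLC39A14 and -0.29 for NCOA4. Without HLS replicate 1 they were -0.62, -0.69 and -0.47.

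In other types, too, SLC40A1 mostly had the lower mean in HLS, as most of the 8 genes did. Its HLS mean was the lower one in 12 of 14 types, against 13 for IREB2, 11 for SLC39A14 and NCOA4, and 6 to 10 for the other genes. These levels carry no TMM factors. Without such factors the median log2 difference of all genes was also below 0 in every type except B lineage-like cells (0.17). It was lowest in theca-like cells (-0.18). The share of all genes with a lower HLS mean was not computed, and these directions are no result about the 8 genes. In stromal-like cells SLC40A1 was at 0.312, 0.618 and 0.555 in HLS ewes and at 0.678, 0.773 and 0.699 in LLS ewes (log2 difference -0.47 ± 0.19, unadjusted p = 0.034, edgeR adjusted p = 0.83). In theca-like cells it was at 0.416, 0.812 and 0.584 against 0.903, 1.30 and 0.844 (-0.58 ± 0.25, unadjusted p = 0.042, adjusted p = 0.95). Neither pair of groups overlapped, which held with all HLS ewes lower for 5.85% and 8.99% of genes in these types. The lowest of the 3 HLS values was that of HLS replicate 1 each time, and without this ewe the differences were -0.31 and -0.45. Without LLS replicate 2 the theca-like difference was -0.37. SLC40A1 was not alone in this. Over the 14 types the groups did not overlap in 4 for ACO1 (1 of them with HLS higher). The count was 2 each for SLC40A1, HMOX1 and SLC39A14, 1 each for NCOA4 and IREB2, and 0 for TFRC and STEAP3. Of all genes with at least 60 UMI, 11.3% (macrophage-like), 11.2% (theca-like), 9.53% (stromal-like) and 8.78% (perivascular-like) had no overlap, either way. For the other types this share was not computed, and the counts are no result about the 8 genes. The types share their ewes, so their directions are not separate evidence. ACO1 in perivascular-like cells was the remaining gene with an unadjusted p under 0.05 (0.037; -0.52 ± 0.21, edgeR adjusted p = 1.0). Its groups did not overlap (0.292, 0.515 and 0.519 in HLS ewes and 0.668, 0.649 and 0.648 in LLS ewes), as was so with all HLS ewes lower for 5.57% of genes there, and the difference was -0.32 without HLS replicate 1.

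**Figure D5:**
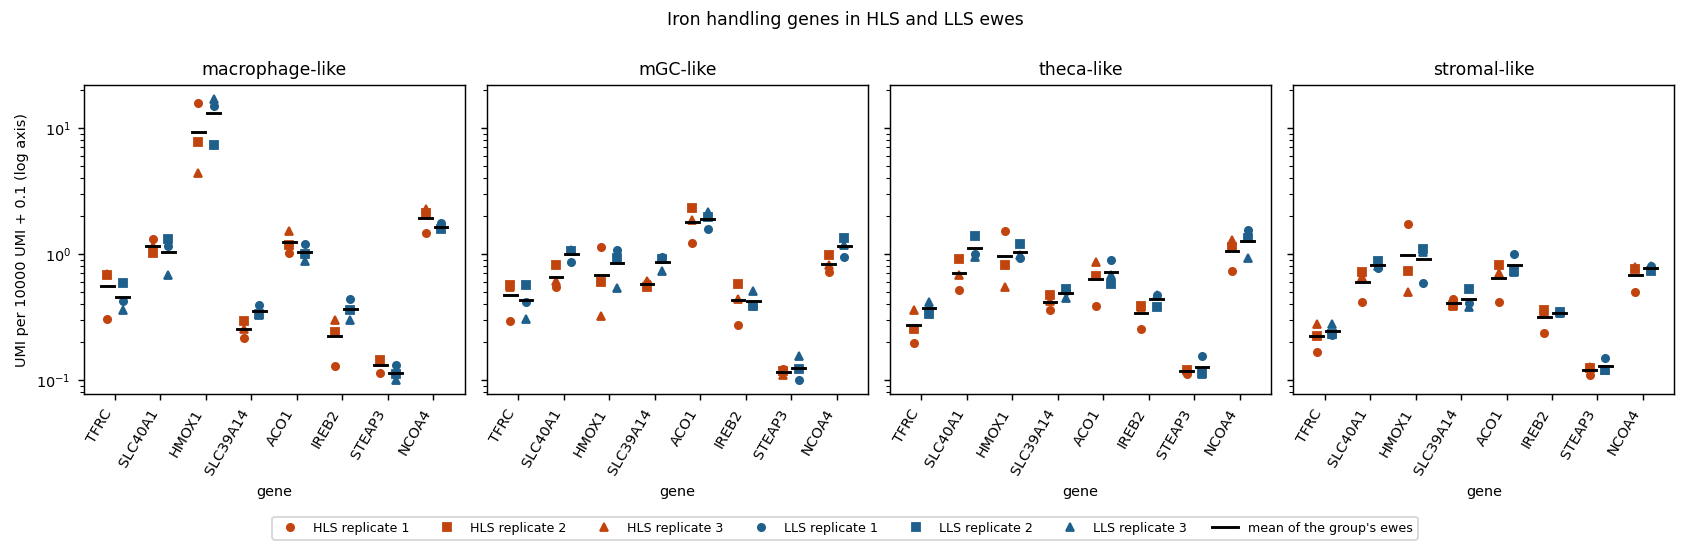
Levels of the 8 genes (y axis, UMI per 10000 UMI plus 0.1, log axis) in HLS (orange) and LLS (blue) ewes for 4 classes of cells. Points are ewes and bars are group means. SLC40A1 is lower in every HLS ewe than in any LLS ewe in mGC-like, theca-like and stromal-like cells and not in macrophage-like cells, and no difference passed the test.

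HLS replicate 1 was often the lowest ewe, though not for every gene. Over the 7 genes other than HMOX1 and the 11 types held by all ewes, it was the lowest of the 6 in 51 of 77 cases, against 2 to 7 for each of the other ewes. By gene this was 10 of 11 types for TFRC and IREB2, 9 for NCOA4, 8 for SLC40A1, 7 for ACO1, 4 for STEAP3 and 3 for SLC39A14, which was lowest as often in HLS replicate 3 and in LLS replicate 1. The same share over all genes was not computed. For HMOX1 it was instead the highest ewe in 8 of 11 types, and HLS replicate 3 was the lowest in 9 of 11. Both of these ewes belong to HLS, so their HMOX1 levels lay at opposite ends within 1 group. The cause was not tested.

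Whether the group difference of a gene differed between macrophage-like and granulosa-like cells was tested by an interaction term. No gene of the 11481 tested passed in edgeR (0%), with 521 at an unadjusted p under 0.05 and 3 that passed in DESeq2. Among the 7 genes tested the smallest adjusted p was 0.98.

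Other genes of iron and haem were read from a list of 52, of which 47 were in the feature tables and 37 entered the comparison of types. In macrophage-like cells 18 were higher and 3 lower, with a median log2 difference of 0.32. Among all genes tested 30.3% were higher and 25.6% lower, or 55.9% in all. The number called was thus near the background, the number higher was above it and the number lower was under it. The list was chosen with earlier results of these data known, and its counts were not tested as a set. SLC11A1 (NRAMP1), which moves iron out of the phagosome, had a level of 0.429 ± 0.246 in macrophage-like cells and at most 0.0437 in any other type. STEAP4, another ferrireductase, passed as higher there at a level of 0.0887 ± 0.0692 and was highest in monocyte or neutrophil-like cells (2.93 ± 2.82, n = 5 ewes). The ferritin heavy chain FTH1 was higher by 3.82 (adjusted p = 1.5e-47), at 56.3 ± 36.5 UMI per 10000, and the light chain FTL by 2.14. The haem transporter SLC48A1 was higher by 2.13. CISD1 (-1.90) and SLC25A37 (-1.22), the mitochondrial iron carrier, and ISCU (-0.28) were lower by edgeR. Hepcidin, HAMP, was near 0, with a mean of at most 0.0166 in any type and at most 13 UMI in all cells of a type, and transferrin, TF, was highest in lymphatic endothelial-like cells (1.29 ± 0.171).

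In endothelial-like cells 11 of the 37 were higher and 6 lower by edgeR, which is near the 49.0% of all genes that passed there and is no result about the list. ABCG2, which exports haem and porphyrins, was higher by 4.26 and SLC39A8 (ZIP8), the closest relative of SLC39A14, by 3.08. Ceruloplasmin, CP, the oxidase that works with ferroportin, was at 0.0345 ± 0.0303 in endothelial-like and 0.201 ± 0.215 in lymphatic endothelial-like cells. Among the lower genes were LRP1 (-1.11) and BLVRB (-0.65). In theca-like cells 21 were higher and 4 lower, where 54.5% of all genes passed (35.1% higher and 19.4% lower). Among the higher ones were transferrin receptor 2, TFR2 (a level of 0.109), and the biliverdin reductases BLVRB (2.14) and BLVRA (1.58), which act after haem oxygenase. In granulosa-like cells 7 were higher and 3 lower, fewer than the 47.7% of all genes that passed there. Among the higher ones were TFR2 (a level of 0.0661), the constitutive haem oxygenase HMOX2 (1.18) and the haem-haemopexin receptor LRP1 (0.91).

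Between granulosa states 26 of the other genes were tested by edgeR. In mGC-like against CC-like cells 7 were higher, led by HMOX2 (2.05), LRP1 (1.69) and BACH1 (1.65), the haem-sensing repressor, and 7 were lower, among them BLVRB (-1.89) and ALAD (-1.75), where 45.1% of all genes passed. FTH1 and FTL were higher in mGC-like cells, by 0.55 and 0.75 against CC-like and by 0.72 and 1.03 against eGC-like cells. Against eGC-like cells 8 were higher and 3 lower, where 42.7% of all genes passed. In CC-like against eGC-like cells 5 were higher, among them BLVRA (0.81) and CISD1 (0.70), and SLC25A37 (-0.64) was lower, where 28.0% of all genes passed. The counts in the pairs with eGC-like cells were near or under those shares, and the counts in no pair of states are read as a result about the list. Between HLS and LLS none of the other genes passed in any type. FTH1 had a log2 difference of 1.68 in macrophage-like cells (adjusted p = 0.41) and of 0.73 in mGC-like cells (adjusted p = 0.99), and FTL of 1.02 and 0.81 (adjusted p = 0.92 and 0.99).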

How the data were processed

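Whole ovaries of 6 Hu ewes, 3 HLS and 3 LLS, were profiled with Chromium 3′ chemistry. The deposited values are raw UMI counts per gene and barcode, which the authors made with Cell Ranger (STAR is named in the submitters' processing notes); the genome build is not given in the sources used here. Gene names are those of the feature tables.

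Barcodes were kept with at least 200 genes and 1000 UMI, log10 genes over log10 UMI of at least 0.7, and at most 10% mitochondrial and 5% haemoglobin UMI. Doublets were called with simulated pairs at 0.8% per 1000 cells. Cells were clustered (2000 variable genes without iron, haem, mitochondrial and haemoglobin genes, 30 components, 20 neighbours, Leiden at resolution 0.8, leidenalg 0.10.2), and clusters were named from marker lists. The scoring rule and its minimum of 0.4, the joining of an mGC-marker cluster to the granulosa cells, the naming of cycling clusters and the removal of sub-clusters led by another type were chosen after the clusters were seen.

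UMI were summed per ewe and type with at least 10 cells, and sums were tested with edgeR 4.0.16 (R 4.3.3; TMM, filterByExpr, quasi-likelihood, Benjamini-Hochberg threshold 0.05). Types and states had the ewe as a block in a single fit over all types or over all states. Those p-values rest on the spread left after type and ewe, pooled over all the types or states. They do not measure how the difference of a single type varies over the ewes. HLS against LLS had the group alone. Each ewe is 1 library, so p-values between the groups measure the spread between at most 3 ewes a group. Neighbours in the order of levels were compared by exact sign-flip tests on log2(UMI per 10000 + 0.1). Cells were thinned to 1000 UMI where shares were compared. Counts reached 43329214 to 75549906 UMI a library. On simulated data with 200 changed genes the tests recovered 43.0% of them for HLS against LLS in macrophage-like cells (8709 genes, 4 false calls). Of those changed 4-fold 77% were recovered, so recovery of the rest lay below 43.0%. The HLS and LLS differences given above for the genes of iron uptake, export and haem breakdown were smaller than 4-fold. The absence of a call among them therefore does not show that the groups are alike. For macrophage-like cells against other types 76.0% of changed genes were recovered (14339 genes, 89% of those changed 4-fold, 12 false calls). The other types simulated were granulosa-like, endothelial-like and stromal-like cells only. Gene means were equal in all types apart from the changed genes, and there was no ewe effect. The rate for types may thus not hold for the contrasts reported here.

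The 8 genes and the other lists were chosen with earlier results of these data known. All 8 genes were named whatever their values; of the other iron and haem genes, up to 3 with the largest rise and fall past the threshold were named, plus the ferritin chains, SLC48A1, CP, TF and HAMP. Some genes that this rule names are not reported here. Alternatives were other scaling, no filter, DESeq2 1.42.0, each ewe left out, a replicate block, doublets kept, other cell limits, other resolutions, a minimum of 25 cells and thinned cells. Epithelial-like cells, which reached 10 cells in 3 ewes only, all LLS, and aGC-like cells, almost all from 1 ewe, entered no test.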

Additional observations from a re-analysis of the deposited data

How the results depend on the processing

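Between HLS and LLS, 2 genes passed over all types and states by edgeR, 4 without TMM factors, 629 with no filter on low counts, 35 by DESeq2 and 0 with a mitochondrial limit of 20%, and 1 to 6 when 1 ewe was left out; none was among the 8 genes in the fits as reported. The interaction of macrophage-like and granulosa-like cells had 0 calls, against 47 with no filter, 3 by DESeq2, 1 with thinned cells and 0 to 2 without 1 ewe. Thinning to 1000 UMI, which removes most of the reads, lowered the calls over the types from 78469 to 34728 and between granulosa states from 9277 to 2432, and the ACO1 level in granulosa-like cells from 1.15 to 0.880. With called doublets kept, SLC39A14 in lymphocyte-like cells turned from -0.93 to 0.033. With thinned cells the HLS minus LLS differences in macrophage-like cells turned to -0.068 for ACO1 and -0.71 for SLC40A1, and without 1 ewe that of HMOX1 ran from -1.11 to 0.0090. The causes were not tested beyond the construction of each setting. Of the calls over types, 465 values under other settings remained past the threshold in the same direction, 39 lost it and 1 reversed, and without 1 ewe 289 remained and 23 lost it; between states these were 93 and 9, and 54 and 12. Ewes with the same replicate number share only that number: their deviations correlated at -0.29, -0.37 and 0.34 in endothelial-like cells, and not every ewe correlated best with its own number. With the replicate block 2 genes passed between HLS and LLS, and the call of none of the 8 genes changed. Levels near 0, such as those of STEAP3, are limited by the counts, and intervals and SDs over 3 ewes a group are wide.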

Other observations

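Some cells entered no comparison because they came mostly from 1 ewe or were left unnamed. The aGC-like cells, led by OXT, were almost all from LLS replicate 3 (106 of 107 cells), and NCOA4 was there at 1.497, TFRC at 0.553 and HMOX1 at 0.485 UMI per 10000. Of 151 cells of an unnamed cluster led by PLAC8 and LAMP3, 132 came from LLS replicate 2, and with sums from 2 ewes, TFRC was there at 0.990, HMOX1 at 1.88 and SLC40A1 at 0.0383. The 352 granulosa cells left unnamed had SLC40A1 at 1.49 ± 0.468 and HMOX1 at 1.20 ± 0.570 (SD, n = 5 ewes). Epithelial-like cells were found in every ewe but reached 10 cells in the 3 LLS ewes only, where they had ceruloplasmin, CP, at 0.994 ± 0.553 and ACO1 at 0.797 ± 0.245.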
